A study of Homo sapiens with 6 samples.

Results

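The genes of MHC class I antigen presentation described here are 9 of the 62754 gene rows in each deposited table. They were chosen by symbol: the heavy chains HLA-B, HLA-C, HLA-E and HLA-F, the light chain B2M, the peptide transporter subunits TAP1 and TAP2, the loading factor TAPBP and the peptide trimming enzyme ERAP1. The RNA came from HUDEP-2, a human line of immortalised erythroid progenitors, and was selected for poly(A). In 3 libraries the cells carried a lentiviral shRNA against MEN1, the gene of menin, a subunit of MLL1 histone methyltransferase complexes, and in 3 libraries they carried a control shRNA and are labelled wild type. All 6 cultures grew with erythropoietin (3 units per ml), stem cell factor (50 ng per ml), dexamethasone (1e-06 M) and doxycycline (1 µg per ml), were selected with puromycin (2 µg per ml) from 24 h after infection for 48 h, and were harvested at 72 h. The titles number the libraries as biological replicates 1 to 3 of each group. The labels name 1 MEN1 shRNA in 1 cell line, so loss of menin and off-target effects of its sequence cannot be told apart here.

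Class I molecules carry peptides from inside the cell to its surface, where T cells and natural killer cells read them. Proteasomes cut proteins into peptides, the TAP1 and TAP2 transporter carries them into the endoplasmic reticulum, TAPBP (tapasin) holds empty class I molecules at that transporter, and ERAP1 shortens the peptides to a length that fits. The heavy chain leaves for the surface once it holds a peptide and B2M. Erythroid cells lose class I molecules as they mature, and mature red cells carry little of them.

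Levels are given in TPM, a transcript abundance scaled by gene length and library total, so that levels of different genes can be set side by side. Fold changes are differences in log2(TPM + 1), MEN1 shRNA minus control shRNA, from 1 limma fit of the 14294 genes that reached 1 TPM in 3 or more libraries. Adjusted p-values are Benjamini-Hochberg values over those genes, and a gene is said to have risen or fallen where this value was under 0.05. With a pseudocount of 1 the fold of genes with low levels is understated.

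MEN1 itself measured 6.29, 6.44 and 6.88 TPM under its shRNA and 41.2, 39.6 and 37.1 TPM in the controls, a log2 fold change of -2.42 (SE 0.0803, adjusted p = 8.54e-06 in limma). Depth inferred from the deposited coverage was 5.56 to 10.8 Gb of aligned sequence per library, and each library held 13865 to 14361 genes at 1 TPM or above. All 10 erythroid markers examined were detected. Their summed level was 77200 to 85200 TPM with the MEN1 shRNA against 46000 to 50100 TPM in the controls, mostly globin transcripts. Among 8 macrophage or monocyte markers the sum was 113 to 143 TPM against 53.3 to 57 TPM, carried by FCGR1A and CD68, while CD163 was listed at 0 in all 6 libraries and 5 of the 8 stayed below 1 TPM. LYZ, the remaining tested marker of that list, fell from 1.48 to 0.198 TPM (change of -1.05 in log2, adjusted p = 0.00116 in limma). It reached 1 TPM only in the controls and was tested only through them. Of 8 lymphocyte markers 6 stayed below 1 TPM, with sums of 12.3 to 15.1 against 15.2 to 20.2 TPM and MS4A1 listed at 0. The tested markers of that list moved in opposite directions: CD3D rose from 0.397 to 4.4 TPM (1.96, adjusted p = 0.000467) and PTPRC fell from 16.3 to 9.06 TPM (-0.77, adjusted p = 0.00124). CD3D reached 1 TPM only with the MEN1 shRNA and was tested only through that group. Of 6 dendritic markers 5 stayed below 1 TPM, with CD86 and CD1C listed at 0 and sums of 1.32 to 2.52 against 0.844 to 1.14 TPM, and 5 endothelial or stromal markers summed to 0.0721 to 0.158 against 0.0558 to 4.37 TPM, with CDH5 and DCN listed at 0. The part of these marker differences in the class I results was not tested, and in bulk RNA fewer cells of a type and less RNA per cell cannot be told apart.

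The members did not move as a block. HLA-C, HLA-E, TAPBP and ERAP1 rose, TAP1 and TAP2 fell, and HLA-B, HLA-F and B2M did not pass the test. All 9 members passed the filter on low values. The 6 members called stand beside 53.6% of all tested genes called in this comparison, the 4 that rose beside 22.1% and the 2 that fell beside 31.5%. In the same 6 members the 3 values of one group all lay above the 3 of the other, which was so for 61.8% of all tested genes. The median log2 fold change of the members was 0.25 against -0.07 over all tested genes, and their median absolute change was 0.32 against 0.37. Counts out of 9 members were not tested against these shares, and what follows rests on the single genes.

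**Figure D1:**
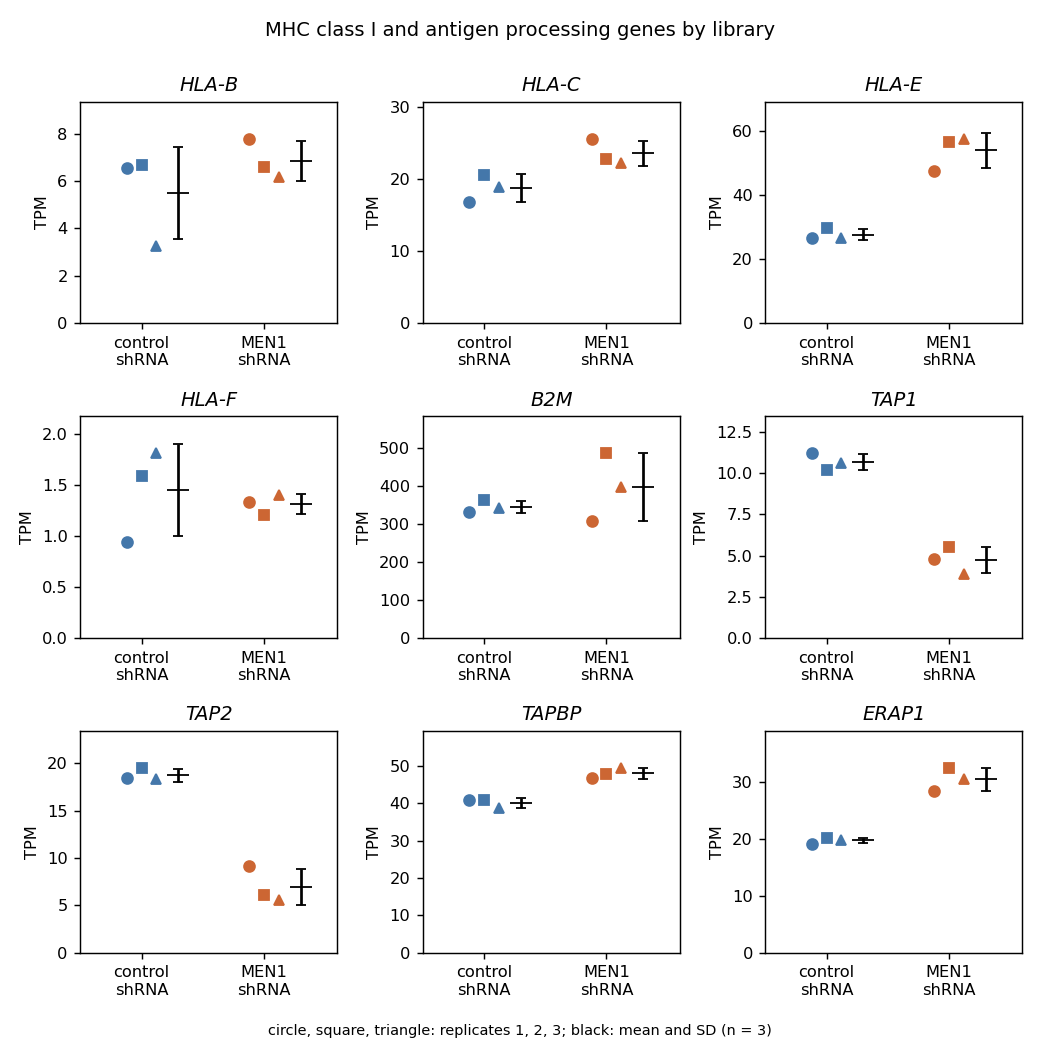
Level in TPM of each of the 9 genes in the 3 control shRNA libraries (blue) and the 3 MEN1 shRNA libraries (orange), with circles, squares and triangles for replicates 1, 2 and 3 and black bars for the mean and SD (n = 3); each panel has its own axis from 0. The groups separate in HLA-C, HLA-E, TAP1, TAP2, TAPBP and ERAP1 and overlap in HLA-B, HLA-F and B2M.

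The stretch before the start of 5 members is shown because TAP1, TAP2 and TAPBP serve the same loading step but changed in different directions, while HLA-C and B2M encode the paired chains. The sequences are the 250 bases upstream of the RefSeq start (GRCh38.p14), read in the direction of the gene, from chr6:31272093-31272342 (minus strand, HLA-C), chr15:44711267-44711516 (plus strand, B2M), chr6:32853705-32853954 (minus strand, TAP1), chr6:32838740-32838989 (minus strand, TAP2) and chr6:33314079-33314328 (minus strand, TAPBP). Capitals mark letters matching an interferon regulatory factor core (AANNGAAA), an NF-kB motif, or the paired ends of the X2 and Y boxes (TGACG followed after 15 to 25 bases by ATTGG), searched on both strands.
HLA-C: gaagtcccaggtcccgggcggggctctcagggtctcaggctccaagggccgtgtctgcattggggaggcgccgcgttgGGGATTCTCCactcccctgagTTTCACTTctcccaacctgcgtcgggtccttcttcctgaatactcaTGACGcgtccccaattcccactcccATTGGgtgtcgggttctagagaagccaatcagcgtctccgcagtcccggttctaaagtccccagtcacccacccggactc
B2M: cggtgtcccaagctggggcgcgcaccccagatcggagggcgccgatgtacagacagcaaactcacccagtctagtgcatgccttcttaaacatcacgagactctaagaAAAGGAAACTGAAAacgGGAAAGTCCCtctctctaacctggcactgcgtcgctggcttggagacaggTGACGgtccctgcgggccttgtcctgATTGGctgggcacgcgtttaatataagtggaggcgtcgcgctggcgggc
TAP1: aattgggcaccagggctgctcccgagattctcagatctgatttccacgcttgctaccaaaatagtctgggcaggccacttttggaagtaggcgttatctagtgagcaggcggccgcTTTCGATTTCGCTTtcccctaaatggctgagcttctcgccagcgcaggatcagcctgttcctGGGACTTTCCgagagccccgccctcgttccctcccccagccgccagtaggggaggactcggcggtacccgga
TAP2: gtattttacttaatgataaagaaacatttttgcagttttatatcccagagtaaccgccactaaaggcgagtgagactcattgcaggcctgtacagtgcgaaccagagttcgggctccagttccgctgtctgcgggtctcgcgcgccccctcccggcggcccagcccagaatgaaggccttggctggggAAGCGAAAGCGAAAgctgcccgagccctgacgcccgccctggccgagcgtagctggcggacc
TAPBP: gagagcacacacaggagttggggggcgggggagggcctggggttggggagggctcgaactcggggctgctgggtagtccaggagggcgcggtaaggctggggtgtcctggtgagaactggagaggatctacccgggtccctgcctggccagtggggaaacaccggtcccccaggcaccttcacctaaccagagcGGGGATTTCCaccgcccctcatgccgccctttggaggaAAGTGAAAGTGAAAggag
Neighbouring or overlapping matches run together in 1 block of capitals, as the pair of interferon regulatory factor cores does in B2M, TAP1, TAP2 and TAPBP. RefSeq promoters were matched for 8 of the 9 members. The interferon regulatory factor core was present in 7 of the 8, all but ERAP1, and in 20.3% of 35116 promoters of the same length. In TAP1 and TAP2, which fell, in TAPBP, which rose, and in B2M, which did not pass the test, it came as 2 matches 6 bases apart from start to start. The X2 and Y pair was present in HLA-B, HLA-C and B2M, with 20, 20 and 21 bases between its ends, against 0.407% of all promoters. The NF-kB motif was present in 6 of the 8, in all but HLA-F and TAP2, against 5.21% of all promoters. These matches describe letters in a window and not bound sites. In the deposited tables the gene rows began 38 bases (HLA-C), 159 bases (B2M), 112 bases (TAP1) and 206 bases (TAPBP) before the RefSeq start, and that of TAP2 began at it. For the other matched members the rows began 9888 bases (HLA-B), 659 bases (HLA-F) and 155 bases (ERAP1) before the RefSeq start.

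HLA-E showed the largest rise among the members. HLA-E (ENSG00000204592, chromosome 6, 30489509 to 30494194, plus strand) encodes a heavy chain with little variation between people that presents leader peptides of other class I chains to natural killer cells. Its level was 47.6, 56.6 and 57.5 TPM under the MEN1 shRNA against 26.7, 29.6 and 26.6 TPM in the controls. The lowest MEN1 shRNA library was well clear of the highest control. The means were 53.9 ± 5.51 and 27.7 ± 1.7 TPM (SD, n = 3 each), a 1.95-fold difference. The log2 fold change was 0.93 (SE 0.0919, 95% confidence interval 0.72 to 1.15, adjusted p = 0.000148 in limma), and 13.7% of tested genes changed by more in either direction.

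HLA-C rose by less and less firmly. HLA-C (ENSG00000204525, chromosome 6, 31268749 to 31272130, minus strand) is a classical heavy chain that is also read by killer cell receptors. Its level was 25.6, 22.8 and 22.3 TPM under the MEN1 shRNA against 16.8, 20.6 and 18.9 TPM in the controls. The groups did not overlap, but the lowest MEN1 shRNA library was close to the highest control. The log2 fold change was 0.32 (SE 0.0973, 95% confidence interval 0.09 to 0.54, adjusted p = 0.0268 in limma), from means of 23.6 ± 1.78 and 18.7 ± 1.86 TPM (SD, n = 3 each). The call was close to the threshold. It was lost without MEN1 shRNA replicate 1 (adjusted p = 0.0699 in limma) or 2 (0.0527) and without control replicate 1 (0.081) or 3 (0.0624). It was also lost with no filter on low values (0.0671). The log2 fold change stayed at 0.24 to 0.38 whichever library was left out.

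HLA-B had the same fitted change as HLA-C with a wider spread. HLA-B (ENSG00000234745, chromosome 6, 31353872 to 31367067, minus strand) is the other classical heavy chain among the members. Its values were 7.78, 6.59 and 6.17 TPM under the MEN1 shRNA and 6.54, 6.69 and 3.25 TPM in the controls. Control replicate 3 was low and the other 2 controls lay among the MEN1 shRNA libraries. The log2 fold change was 0.32 (SE 0.234, 95% confidence interval -0.23 to 0.86, adjusted p = 0.289 in limma), and without control replicate 3 it was 0.04.

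HLA-F was the lowest of the members. HLA-F (ENSG00000204642, chromosome 6, 29722775 to 29738528, plus strand) encodes a non-classical heavy chain that can stand at the surface without peptide. The MEN1 shRNA libraries held 1.33, 1.21 and 1.4 TPM and the controls 0.946, 1.59 and 1.81 TPM, so the controls spanned the whole range of the other group. The log2 fold change was -0.07 (SE 0.181, 95% confidence interval -0.49 to 0.36, adjusted p = 0.787 in limma), and its sign turned to 0.04 without control replicate 3. The confidence interval holds changes of either sign. The mean coverage behind these values was 3.58 to 7.79 reads per base, against 84.6 to 212 for HLA-E, and the part of coverage in the width of the interval was not tested. The antisense gene HLA-F-AS1 overlaps the HLA-F row and was at 2.35, 1.97 and 1.65 TPM against 3.64, 3.77 and 4.03 TPM. Whether the quantification used strand is not given in the sources used here, so reads of this pair may not be told apart.

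B2M, the light chain shared by all class I heavy chains, was by far the most abundant member and did not pass the test. B2M (ENSG00000166710, chromosome 15, 44711358 to 44718851, plus strand) reached 308, 487 and 398 TPM under the MEN1 shRNA and 333, 364 and 342 TPM in the controls. The controls lay close together, while the MEN1 shRNA libraries fell on both sides of them, replicate 1 below every control and replicates 2 and 3 above. The means were 397 ± 89.6 and 346 ± 15.9 TPM (SD, n = 3 each), and the log2 fold change was 0.17 (SE 0.149, 95% confidence interval -0.17 to 0.52, adjusted p = 0.359 in limma). Without MEN1 shRNA replicate 1 the change was 0.35 and passed the test (adjusted p = 0.0216).

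Set against the 4 heavy chains, B2M was lower with the MEN1 shRNA. B2M TPM per summed TPM of HLA-B, HLA-C, HLA-E and HLA-F was 3.74, 5.58 and 4.55 under the MEN1 shRNA against 6.52, 6.22 and 6.76 in the controls. Every MEN1 shRNA library lay below every control, with means of 4.62 ± 0.923 and 6.5 ± 0.269 (SD, n = 3 each). A 2-sided exact permutation test over the libraries gave p = 0.1, its lower limit for groups of 3. The summed heavy-chain level in this ratio was 82.2, 87.2 and 87.4 TPM against 51.1, 58.5 and 50.6 TPM.

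In the reference transcripts 0.275% of the 100-base windows of HLA-C and 0.6% of those of HLA-E also occur in another gene, and none of HLA-B, HLA-F or B2M do. How reads of the cell line's own HLA alleles were placed on the reference was not tested.

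The summed level of the 4 heavy chains differed 1.6-fold between the group means (85.6 ± 2.92 and 53.4 ± 4.43 TPM, SD, n = 3 each). Their mix also differed. HLA-E made up 57.8, 64.9 and 65.8% of the sum under the MEN1 shRNA against 52.4, 50.7 and 52.7% in the controls, so the groups did not overlap. HLA-C made up 31.1, 26.1 and 25.5% against 33, 35.1 and 37.3%, again without overlap. The share of HLA-B was 8.02 ± 1.26% against 10.2 ± 3.36% (SD, n = 3 each), with overlapping libraries. These shares were not tested and add to 100% by construction, so a higher share of HLA-E lowers the rest.

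**Figure D2:**
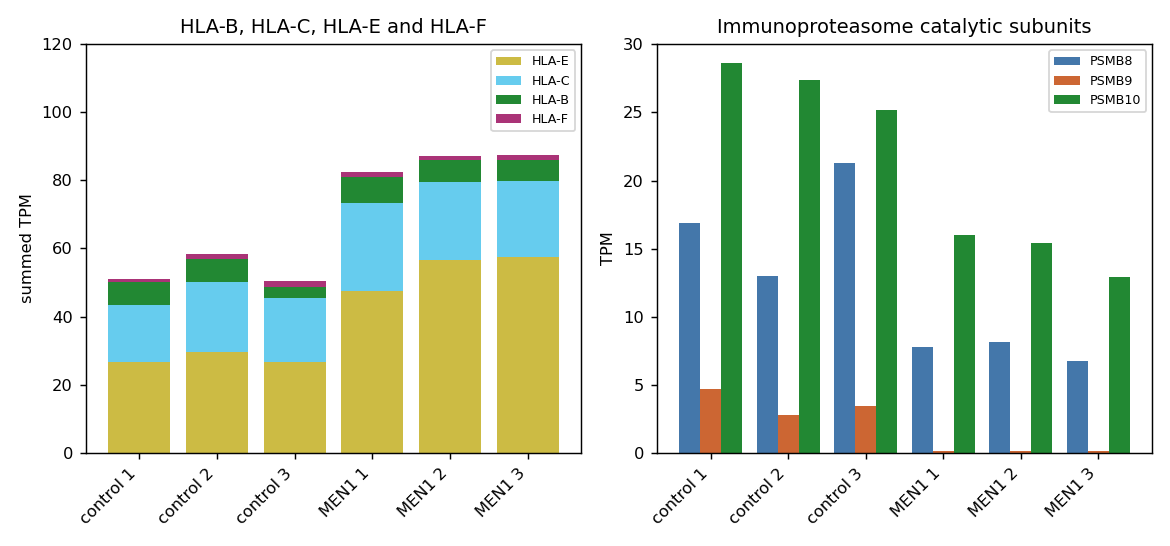
Left, summed TPM of the heavy chains HLA-E, HLA-C, HLA-B and HLA-F, stacked in each of the 6 libraries; right, TPM of the immunoproteasome subunits PSMB8, PSMB9 and PSMB10 in the same libraries, both on axes from 0. The stacks reach 50.6 to 58.5 TPM in the controls and 82.2 to 87.4 TPM with the MEN1 shRNA, while all 3 subunits are lower with the MEN1 shRNA.

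Both subunits of the peptide transporter fell. TAP1 (ENSG00000168394, chromosome 6, 32845209 to 32853816, minus strand) measured 4.77, 5.51 and 3.91 TPM under the MEN1 shRNA and 11.2, 10.2 and 10.6 TPM in the controls. The groups were far apart, and the MEN1 shRNA mean was 44.2% of the control mean (4.73 ± 0.801 and 10.7 ± 0.493 TPM, SD, n = 3 each). This was a log2 fold change of -1.04 (SE 0.126, 95% confidence interval -1.33 to -0.74, adjusted p = 0.000366 in limma).

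TAP2 (ENSG00000204267, chromosome 6, 32821833 to 32838739, minus strand) forms the transporter with TAP1. It measured 9.13, 6.09 and 5.54 TPM under the MEN1 shRNA and 18.4, 19.5 and 18.3 TPM in the controls. Replicate 1 was the highest of the MEN1 shRNA libraries and still below every control. The mean was 36.9% of the control mean (6.92 ± 1.93 and 18.8 ± 0.664 TPM, SD, n = 3 each), with a log2 fold change of -1.34 (SE 0.162, 95% confidence interval -1.72 to -0.97, adjusted p = 0.000361 in limma). A larger absolute change was seen in 5.73% of tested genes, and for TAP1 in 11.2%. The TPM ratio of TAP1 to TAP2 was 0.711 ± 0.191 under the MEN1 shRNA against 0.571 ± 0.0428 in the controls (SD, n = 3 each), with overlapping libraries.

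The rows of both transporter genes share sequence or position with others. The row of PSMB9 spans TAP1 wholly on the opposite strand, and it fell too. An unnamed row (ENSG00000250264) lies over TAP2 on the same strand and holds 35.2% of the 100-base windows of the TAP2 reference transcript, and it was listed at 0 TPM in all 6 libraries. The mean coverage per base was 10.1 to 50.1 for TAP1 and 14.3 to 95.4 for TAP2.

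TAPBP and ERAP1, which act beside and after the transporter, rose. TAPBP (ENSG00000231925, chromosome 6, 33299694 to 33314284, minus strand), the bridge between the transporter and empty class I molecules, measured 46.7, 48 and 49.5 TPM under the MEN1 shRNA and 40.9, 40.9 and 38.7 TPM in the controls. The difference was small but the libraries of each group lay close together, so the groups did not overlap. The log2 fold change was 0.25 (SE 0.061, 95% confidence interval 0.11 to 0.39, adjusted p = 0.00971 in limma), from means of 48.1 ± 1.43 and 40.2 ± 1.25 TPM (SD, n = 3 each). ERAP1 (ENSG00000164307, chromosome 5, 96760810 to 96808100, minus strand), an aminopeptidase of the endoplasmic reticulum, was at 28.5, 32.5 and 30.5 TPM against 19.2, 20.2 and 19.8 TPM. All MEN1 shRNA libraries lay well above the controls, a 1.55-fold difference of the means (30.5 ± 2 and 19.7 ± 0.509 TPM, SD, n = 3 each). Its log2 fold change was 0.60 (SE 0.0753, 95% confidence interval 0.43 to 0.78, adjusted p = 0.000414 in limma). The end of the ERAP1 row overlaps CAST, the calpastatin gene on the opposite strand, whose level was 405, 421 and 406 TPM against 466, 462 and 471 TPM.

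In the controls the levels ran from B2M at 346 TPM through TAPBP at 40.2, HLA-E at 27.7, ERAP1 at 19.7, TAP2 at 18.8, HLA-C at 18.7, TAP1 at 10.7 and HLA-B at 5.49 to HLA-F at 1.45 TPM. ERAP1, TAP2 and HLA-C overlapped as neighbours in this order, and the other neighbours were apart in all 3 control libraries. With the MEN1 shRNA the order changed: HLA-E (53.9 TPM) overlapped TAPBP (48.1 TPM), and ERAP1 (30.5 TPM), HLA-C (23.6 TPM) and TAP2 (6.92 TPM) no longer overlapped each other. The libraries of TAP2 (5.54 to 9.13 TPM) then spanned those of HLA-B (6.17 to 7.78 TPM). Averaged over the 6 libraries, B2M stood above 97.8% of tested genes and HLA-F above 7.84%, with TAP1 above 36.1% and HLA-E above 72.9%.

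**Figure D3:**
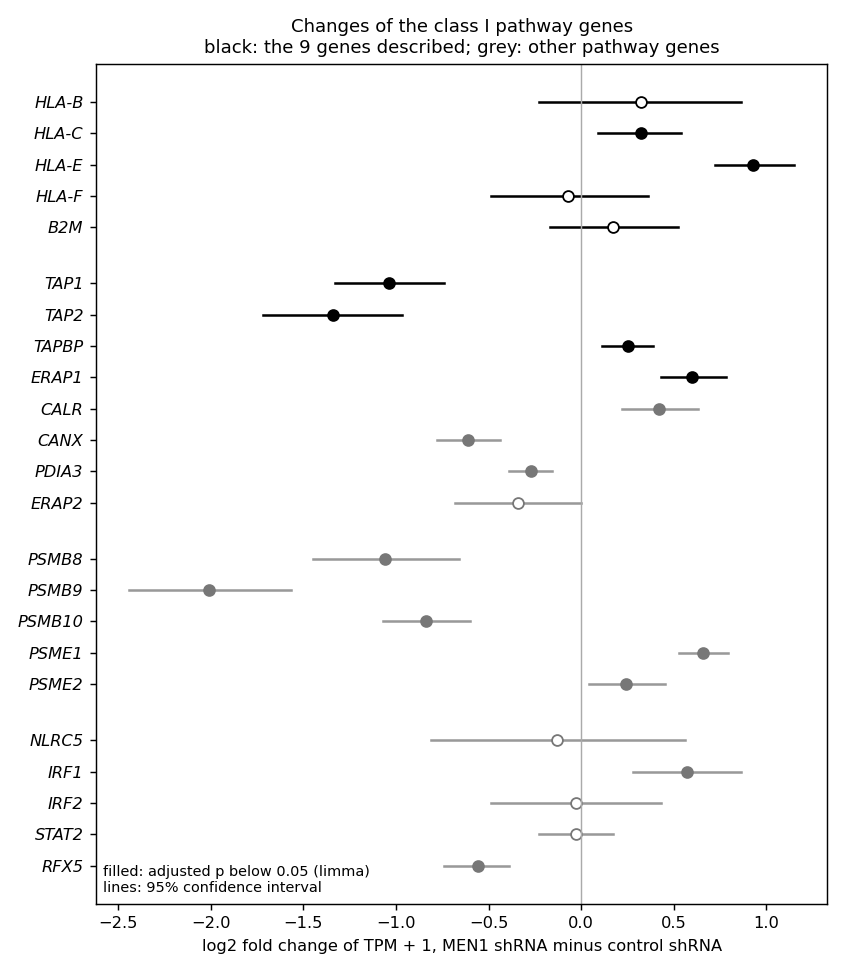
Log2 fold change of TPM + 1, MEN1 shRNA minus control shRNA, of the 9 genes (black) and of 14 further genes of the pathway (grey), with 95% confidence intervals from limma; filled circles have an adjusted p under 0.05. TAP1, TAP2, PSMB8, PSMB9 and PSMB10 lie between -0.84 and -2.01, while HLA-E lies near 1.

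Around the members, 120 further genes were examined in 9 lists, which cover the class I pathway, class II genes and receptors of other cells. Of these, 84 were tested, 26 rose, 31 fell and 27 did not pass the test, with a median log2 fold change of -0.07, the same as over all tested genes. The 57 called of these 84 stand beside the 53.6% of all tested genes called. For the rises and falls in each list below, the shares over all tested genes were 22.1% and 31.5%.

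Among 17 further class I and class I-like heavy chains 8 were tested, of which 4 rose and 3 fell (median 0.19). MICA, a stress ligand of natural killer cells, rose from 15 ± 1.5 to 32.9 ± 2.12 TPM (SD, n = 3 each), a log2 fold change of 1.09 (adjusted p = 9.33e-05 in limma). PROCR, the class I-like receptor of protein C, rose from 3.32 to 8.82 TPM (1.19, adjusted p = 0.000741). FCGRT, the heavy chain of the neonatal Fc receptor, which also pairs with B2M, fell from 1.74 to 0.349 TPM (-1.04, adjusted p = 0.00268). FCGRT reached 1 TPM only in the controls, so it passed the filter on low values only through them and its call adds no support.

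In the list of peptide loading and trimming, 17 genes were tested, of which 3 rose and 12 fell (median -0.40). This list also held general folding and translocation genes of the endoplasmic reticulum. TAPT1, counted among the 3 that rose, has no known part in peptide loading or trimming. The chaperones of the loading complex did not move together. CALR (calreticulin) rose from 1080 to 1450 TPM (change of 0.42 in log2, adjusted p = 0.00482 in limma), while CANX (calnexin), which holds newly made heavy chains, fell from 290 to 190 TPM (-0.61, adjusted p = 0.000355). PDIA3, the disulfide isomerase bound to TAPBP, fell from 209 to 173 TPM (-0.27, adjusted p = 0.00211). UGGT1, which returns unfinished glycoproteins to the chaperones, fell from 83.8 to 47.7 TPM (-0.80, adjusted p = 0.000221). ERAP2, the second trimming enzyme of the endoplasmic reticulum, was at 2.79 ± 0.538 against 3.76 ± 0.363 TPM (SD, n = 3 each) and did not pass (-0.34, adjusted p = 0.0876). Among cytosolic peptidases, NPEPPS rose from 25.6 to 65 TPM (1.31, adjusted p = 4.73e-05), whereas BLMH fell from 85.7 to 36.4 TPM (-1.23, adjusted p = 0.000113) and THOP1 from 76.3 to 44.1 TPM (-0.78, adjusted p = 0.000482).

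The 3 catalytic subunits of the immunoproteasome fell, with PSMB9 tested only through its control levels. Over all tested genes 31.5% fell. The 3 subunits replace PSMB5, PSMB6 and PSMB7 in the proteasome core and favour peptides that suit class I molecules. PSMB9 measured 0.166, 0.153 and 0.112 TPM under the MEN1 shRNA and 4.72, 2.79 and 3.48 TPM in the controls, so its mean was 3.92% of the control mean (log2 fold change -2.01, SE 0.187, adjusted p = 0.000118 in limma). It reached 1 TPM only in the controls and so passed the filter on low values only through the group where it was high. A gene that enters in this way can hardly be called other than lower, so its call adds no support. PSMB8 was at 7.79, 8.12 and 6.75 TPM against 16.9, 13 and 21.3 TPM (-1.06, SE 0.168, adjusted p = 0.00133). PSMB10, on chromosome 16, was at 16, 15.4 and 12.9 TPM against 28.6, 27.4 and 25.2 TPM (-0.84, SE 0.101, adjusted p = 0.000359). PSMB8 and PSMB10 did not overlap between the groups, which was so for 61.8% of all tested genes. Neither did PSMB9, which the filter admitted through its controls. The position of the PSMB9 row over TAP1 leaves the values of both rows uncertain to the extent that strand was not used.

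The constitutive counterparts changed by less. PSMB6 rose from 183 to 235 TPM (change of 0.36 in log2, adjusted p = 0.0157 in limma), PSMB7 fell from 269 to 231 TPM (-0.22, adjusted p = 0.0108), and PSMB5 did not pass (0.23, adjusted p = 0.141). The immunoproteasome subunits made up 3.89, 3.6 and 2.98% of the summed TPM of all 6 catalytic subunits under the MEN1 shRNA against 7.63, 7.17 and 7.75% in the controls. The means were 3.49 ± 0.464% and 7.52 ± 0.305% (SD, n = 3 each), with no overlap (2-sided exact permutation test, p = 0.1, again the lower limit). The activator subunits PSME1 and PSME2 rose, from 175 to 277 TPM (0.66, adjusted p = 7.45e-05) and from 94.2 to 111 TPM (0.24, adjusted p = 0.0471), and PSME3, which forms a separate nuclear activator, fell from 167 to 72.1 TPM (-1.20, adjusted p = 8.83e-05). In the whole list of 8 immunoproteasome and activator genes 7 were tested, 2 rose and 4 fell, PSMB9 included (median -0.84).

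Of 23 transcription factors and coactivators known to act on class I genes 21 were tested, 8 rose and 4 fell (median -0.02). NLRC5, the class I transactivator, was at 1.17, 0.778 and 1.2 TPM against 1.04, 2.47 and 0.556 TPM and did not pass (log2 fold change -0.13, adjusted p = 0.744 in limma). Its controls spread widely at this low level, and the 95% confidence interval ran from -0.81 to 0.56. RFX5, which binds the X box of class I promoters, fell from 47.8 to 32 TPM (-0.56, adjusted p = 0.000614). IRF1, an activator acting on the interferon regulatory factor core, rose from 6.62 ± 0.559 to 10.4 ± 1.52 TPM (SD, n = 3 each; 0.57, adjusted p = 0.00632), and IRF2, its antagonist, was at 23.8 TPM in both groups (-0.03, 95% confidence interval -0.49 to 0.43, adjusted p = 0.905). In the NF-kB family RELB rose from 2.45 to 10.2 TPM (1.69, adjusted p = 8.53e-05) and NFKB2 from 8.34 to 21.8 TPM (1.26, adjusted p = 0.000769), while NFKB1 fell from 27.6 to 13.8 TPM (-0.96, adjusted p = 0.000776). The acetyltransferase KAT2B rose from 26.5 to 83.5 TPM (1.61, adjusted p = 2.97e-05).

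In interferon receptor signalling 14 of 15 genes were tested, 3 rose and 4 fell (median -0.04). Both chains of the interferon gamma receptor fell, IFNGR1 from 21.5 to 7.51 TPM (change of -1.40 in log2, adjusted p = 7.45e-05 in limma) and IFNGR2 from 45.8 to 23.5 TPM (-0.94, adjusted p = 3.49e-05). The kinase JAK1 rose from 57.3 to 90 TPM (0.64, adjusted p = 0.000261). Among the factors downstream, IRF9 rose from 5.12 to 18.8 TPM (1.70, adjusted p = 7.22e-05), and STAT2 was at 12.1 against 12.3 TPM (-0.03, 95% confidence interval -0.23 to 0.17, adjusted p = 0.794).

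Of 14 genes that act on class I molecules after assembly or at the surface 13 were tested, 5 rose and 3 fell (median 0.15). IRGQ, which directs class I molecules to autophagy, fell from 5.71 to 1.95 TPM (change of -1.33 in log2, adjusted p = 0.0165 in limma), and TMEM129, a ubiquitin ligase of the endoplasmic reticulum, from 17 to 7.88 TPM (-1.04, adjusted p = 0.000933). MARCHF8, a membrane ubiquitin ligase, rose from 44.7 to 65.5 TPM (0.54, adjusted p = 0.00414). In the list of 14 genes of class II presentation 1 was tested, CTSS, which encodes a protease and not a class II chain. It did not pass, and the other 13 reached at most 1.57 TPM in any library. The 9 receptors through which other cells read class I molecules reached at most 0.0805 TPM.

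Of the 9 members 7 lie in the MHC region of chromosome 6. Of the 140 other tested named genes of that region, between 28 and 34 Mb, 60.7% were called (35% rose and 25.7% fell, median 0.11), against 53.6% of all tested genes. Within 100 kb of TAP1 the named genes tested were TAP2, PSMB8, PSMB9 and TAP1, and all 4 fell, against 31.5% of all tested genes. Of these, PSMB9 passed the filter on low values only through the controls. An unnamed gene in the same window (ENSG00000289047) was at 6.46 against 7.12 TPM and did not pass (-0.12, adjusted p = 0.385 in limma). The RefSeq starts of TAP1 and PSMB9 lie 488 bases apart and face away from each other. PSMB8 and PSMB9 held no match to the 3 motifs in the 250 bases before their starts. The matches shown for TAP1 lie between the starts of TAP1 and PSMB9, beyond the 250 bases searched for PSMB9. The deposited row of PSMB9 began 10056 bases before its RefSeq start. PSMB10, which lies on another chromosome, held 2 interferon regulatory factor cores. Around ERAP1 the neighbours did not share its rise: LNPEP fell (-0.44, adjusted p = 0.0129), as did CAST (-0.18, adjusted p = 0.013), while ERAP2 and an unnamed gene (ENSG00000247121) did not pass.

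**Figure D4:**
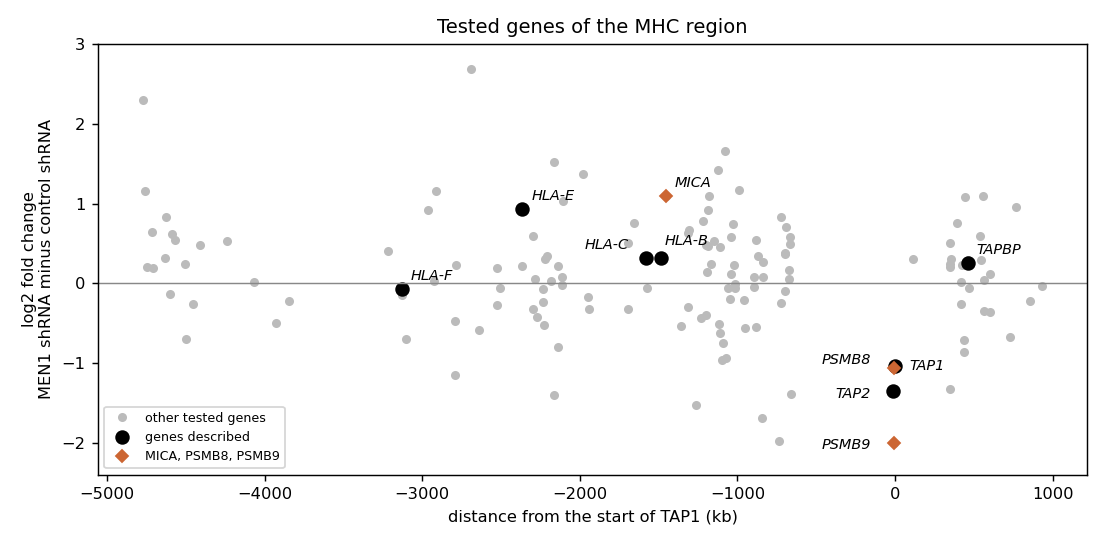
Log2 fold change of TPM + 1 (MEN1 shRNA minus control shRNA) of every tested named gene of the MHC region against its distance in kb from the start of TAP1, with the members in black, MICA, PSMB8 and PSMB9 as orange diamonds and the remaining genes in grey. TAP1, TAP2, PSMB8 and PSMB9 lie together between -1.04 and -2.01, and the heavy chains among the members lie from -0.07 to 0.93.

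The pattern of B2M over the 6 libraries, with MEN1 shRNA replicate 1 lowest and replicate 2 highest, was not that of the other members. Pearson's r with B2M in log2(TPM + 1) was 0.57 for ERAP1, 0.56 for HLA-E, 0.49 for TAPBP, 0.18 for HLA-C, 0.06 for HLA-B, -0.09 for HLA-F, -0.34 for TAP1 and -0.59 for TAP2. The named genes most like it were GALM (0.9803), RPSAP54 (0.9732), SLC2A4RG (0.9709), CMPK2 (0.9612) and SNORA57 (0.9571). CMPK2, a mitochondrial nucleotide kinase induced by interferon, measured 38.1, 105 and 86.8 TPM under the MEN1 shRNA and 50.4, 53.6 and 50.4 TPM in the controls. These values are a description over 6 libraries that share the group difference and the library depth. MEN1 shRNA replicate 1 had 7.43 Gb aligned, in a range of 5.56 to 10.8 Gb over the libraries. The part of depth or of other library properties in this pattern was not tested.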

How the data were processed

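RNA of 6 HUDEP-2 libraries was analysed. Per the labels' protocols, poly(A) RNA was made into directional libraries. Per the submitters' processing notes, FastQC, Trimmomatic, STAR 2.7.1a, Picard 2.20.4, StringTie 2.0.4 and the build hg38 were used, with annotation, strand use and tool roles not given in the sources used here. Each deposited table holds 62754 genes with TPM values that sum to 1000000, FPKM values scaled by the authors for length and fragment number, and the mean coverage per base, per the file headers. Because TPM values are shares, abundant transcripts lower all others. In 1 library 3 deposited values were negative residues near 0 and were set to 0.

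Groups were taken from the sample titles, and no column was left unassigned. Log2(TPM + 1) was fitted with limma 3.58.1 in R 4.3.3 (eBayes with trend, 2-sided, Benjamini-Hochberg, threshold 0.05). The code of the fit was also run on simulated data. These held far fewer changed genes than were called here, so that run does not give the error rate of these calls. Ratios were compared with exact permutation tests over libraries, whose smallest p is 0.1. Depth was read from the ratio of coverage to FPKM in single-transcript genes, of which 94.9 to 95.4% shared 1 ratio within 0.1%. The coverage behind a member is its FPKM times that depth, per base. Of the gene identifiers 58261 are in GENCODE 29, and 99.90% of these overlap their position there. Coordinates are those of the deposited tables, and promoters are from RefSeq (GRCh38.p14). Python 3.11.15 ran the summaries, with SciPy 1.17.1 for permutation, NumPy 2.4.6 and pandas 2.3.3 for tables and matplotlib 3.10.9 for plots.

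The members, the gene lists, the motifs and the rule for naming genes were chosen with earlier results of these data known. The rule names the 9 members, MEN1, 16 further pathway genes whatever their values, up to 4 genes with the largest change past the threshold from each list, and the 5 named genes most like B2M. Some genes that the rule names are not reported here. Marker, neighbouring and overlapping genes, PSMB5, CTSS and HLA-F-AS1 were named after their values were seen. The alternatives were another pseudocount, other filters, FPKM, other scalings, array weights, no trend, a replicate block, summed rows, a stricter threshold and leaving out each library.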

Additional observations from a re-analysis of the deposited data

How the results depend on the processing

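Over all alternatives run, 5 or 6 of the 9 members passed the threshold. TAP1 (log2 fold change -1.17 to -0.88), TAP2 (-1.54 to -1.20), HLA-E (0.89 to 1.03), ERAP1 (0.56 to 0.72) and TAPBP (0.23 to 0.34) stayed past an adjusted p of 0.05 in limma in each of their 17 alternatives. HLA-C (0.24 to 0.45) was the member whose call was lost, in 6 of 17. HLA-F ranged from -0.22 to 0.04, turning positive without control replicate 3, and was not tested at a mean TPM of 5 or more. HLA-B ranged from 0.04 to 0.47 and B2M from 0.02 to 0.35, and the cause was not tested. Leaving out 1 library gave 6577 to 7542 genes past the threshold in place of 7657, 49 to 56 pathway list genes in place of 57, a difference in B2M per heavy chain of -2.35 to -1.43 (-1.87 with all libraries) and in the immunoproteasome share of -4.23 to -3.77 percentage points (-4.03). Same-numbered libraries did not deviate together over all genes (correlations 0.017, -0.027 and -0.012). This gives no sign of pairing by number but cannot exclude that same-numbered cultures were handled together. With the replicate block 5 members and 7012 genes passed, and HLA-C (0.32, adjusted p = 0.0641 in limma) was not among the 5. No rescaling shifted the median over all genes by more than 0.066, and TPM without globin and mitochondrial genes left all 6 member calls in place. The share of rises among all calls was 41.2% and 49.1% after quantile normalization. The mean coverage per base was lowest for HLA-F (3.58 to 7.79).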
